A study of Arabidopsis thaliana with 3 samples.

Results

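Transcript ratios of 9 genes for basic leucine zipper (bZIP) transcription factors were compared between hy5-1 mutant plants and the wild type Landsberg erecta (Ler) after cold treatment. The 9 were all genes with a symbol starting with BZIP among the 7234 named loci of the array, and each was represented by 1 feature. They fell into 5 of the groups into which the Arabidopsis bZIP family is divided: BZIP17 and BZIP28 in group B, BZIP34 and BZIP61 in group E, bZIP19 and BZIP24 in group F, bZIP52 in group I, and bZIP43 and bZIP58 in group S. HY5 and its close homologue HYH make up group H, so none of the 9 belongs to the same group as HY5, and the relation lies in the shared bZIP domain. Neither HY5 nor HYH had a named feature, so their transcripts were not analysed here and the mutation could not be checked through its own gene. Of the 45220 features with values 37780 carried no gene name, so a gene without a named feature may still be on the array.

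Each of 3 two-colour arrays carried RNA of hy5-1 plants and RNA of Ler plants, and each was labelled as a biological replicate. The hy5-1 plants carry a loss-of-function allele of HY5 in the Ler background, and the Ler plants have the intact gene. Both genotypes thus share the erecta mutation of this accession. Plants of both genotypes were 3 weeks old, had been raised in soil substrate at 22 °C with 16 h of light and 8 h of dark, and had then spent 1 day at 4 °C. Both channels held RNA of plants kept in the cold, so a ratio compares the genotypes in the cold and says nothing of the response to cold itself. The labels name plants with no organ, and ratios give no level, so organ identity could not be checked. Of 5 root markers 1 had a named feature, the root hair expansin EXPA18, with ratios of 0.02, 0.04 and 0.13 on arrays 1, 2 and 3. The hy5-1 RNA was red (Cy5) and the Ler RNA green (Cy3) on every array, so a dye effect of a feature and a difference between the genotypes cannot be told apart. All values are read as log2 ratios of hy5-1 over Ler, that is red over green, which is the usual form of such ratios and has the channel listed first, hy5-1, on top. The sample titles name Ler first, which goes against this order. The sources do not state the direction or the base of the logarithm, so the reading is the likely one at most, and the opposite one would turn every direction below together. Gene names were joined to the values through an order of the features that was inferred from the values themselves, so each name depends on it. Fewer cells expressing a gene and less RNA per cell cannot be told apart in such ratios.

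bZIP proteins bind DNA through a basic region and pair through an adjoining leucine zipper, as homodimers or as heterodimers whose partners depend on the group. Many plant bZIP proteins recognise sequences with an ACGT core, and HY5 acts through such elements as a promoter of light-dependent development that also takes part in cold acclimation. Other groups serve different responses, among them stress of the endoplasmic reticulum in group B and zinc deficiency and salt stress in group F.

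Of the 9 bZIP genes, 1 passed the threshold and was lower in hy5-1, BZIP34, and 0 passed as higher. The threshold was an adjusted p of 0.05 in a limma fit of the mean ratio against 0, with Benjamini-Hochberg adjustment over all 7234 loci. In the same fit 17.2% of all loci passed, 7.88% as higher and 9.29% as lower in hy5-1, so the count among the bZIP genes lay near the background. Under an unadjusted limma p of 0.05 were 5 of the 9, BZIP34, bZIP19, BZIP28, BZIP24 and BZIP61, against 36.3% of all loci. The median of the 9 means was -0.03, beside 0 over all loci, and the means ran from -0.55 for BZIP24 to 0.38 for BZIP28 and bZIP19. On all 3 arrays alike, 3 of the genes lay above 0 and 5 below 0, so 8 of the 9 kept their sign and BZIP17 did not. Over all loci 27% lay above 0 and 27.5% below 0 on every array, together 54.5%.

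**Figure D1:**
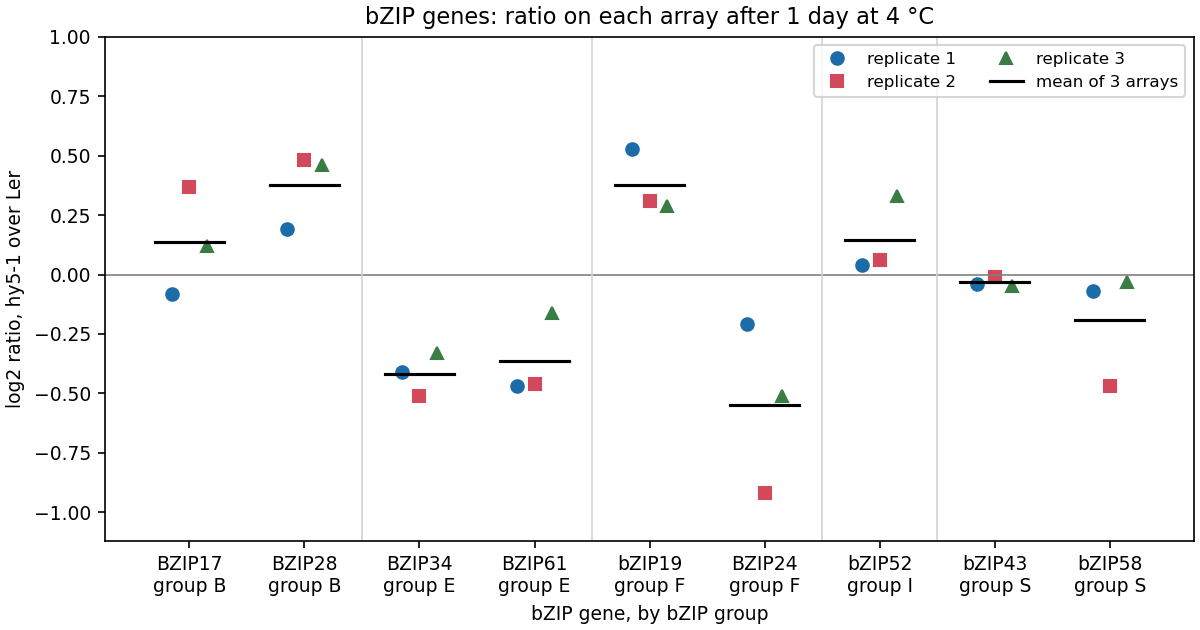
Log2 ratio of hy5-1 over Ler (vertical axis) for each of the 9 bZIP genes, ordered by bZIP group along the horizontal axis. Each symbol is 1 array and the black line is the mean of 3 arrays. BZIP34 and BZIP61 sit between -0.51 and -0.16 on every array, while bZIP19 and BZIP24 of group F lie on opposite sides of 0.

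Group E held the gene that passed. BZIP34, known for a role in pollen wall and lipid metabolism of the pollen, had ratios of -0.41, -0.51 and -0.33 on arrays 1, 2 and 3. All 3 arrays thus placed hy5-1 below Ler, within 0.18 of each other on the log2 scale. The mean of -0.42 ± 0.09 (SD, n = 3) corresponds to a 1.33-fold lower level in hy5-1, with a limma adjusted p of 0.043 and a 95% interval from -0.66 to -0.18. The mean of BZIP34 was -0.42 without replicate 1, -0.37 without replicate 2 and -0.46 without replicate 3. It did not pass in any of these fits (limma adjusted p = 0.204, 0.0717 and 0.202), but without replicate 1 or without replicate 3 limma called 0 of all loci (1613 and 1585 under an unadjusted p of 0.05), so there the lost call says nothing of BZIP34 in particular. Without replicate 2, in contrast, limma called 1380 of all loci (19.1%), and BZIP34 was not among them. The call was also lost with the arrays scaled to a common deviation (limma adjusted p = 0.0836). Without moderation it was lost as well (adjusted p = 0.172 by the unmoderated statistic), where 3 of all loci were called. Among all loci 74.1% had a smaller absolute mean than BZIP34.

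BZIP61 is the closest relative of BZIP34, and both proteins are known to form homodimers poorly and to pair with bZIP proteins of other groups. Its ratios were -0.47, -0.46 and -0.16 on arrays 1, 2 and 3, so hy5-1 lay below Ler on every array, with array 3 nearest to 0. The mean was -0.36 ± 0.18 (SD, n = 3) and did not pass, with a limma adjusted p of 0.0775. The difference between the pair, BZIP34 minus BZIP61, was 0.06, -0.05 and -0.17 on the 3 arrays, with a mean of -0.05 ± 0.12 (SD, n = 3). An exact two-sided sign-flip test over the arrays gave p = 0.75, where 0.25 is the smallest p that 3 arrays allow. The test could thus not have shown a difference between the paralogs, whatever its size, and a pass for BZIP34 beside a miss for BZIP61 does not show one either. The features' sequences are not given here, so whether either feature also binds the transcript of the other gene was not tested.

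Group F held the bZIP genes furthest apart within a group. bZIP19, a sensor of zinc status that activates zinc transporter genes under zinc deficiency, had ratios of 0.53, 0.31 and 0.29 on arrays 1, 2 and 3. All 3 values lay above 0, and the mean was 0.38 ± 0.13 (SD, n = 3), at an adjusted p of 0.061 that missed the threshold. BZIP24, a regulator of the response to salt stress, had ratios of -0.21, -0.92 and -0.51 on the same arrays. All 3 lay below 0, with array 2 the lowest, and the mean of -0.55 ± 0.36 (SD, n = 3) was the largest in size among the 9 genes. This rested on array 2: without replicate 2 the mean of BZIP24 was -0.36, smaller in size than those of bZIP19 (0.41) and BZIP34 (-0.37), and without replicate 1 it was -0.715. Its SD over the arrays was also the largest of the 9, and it did not pass (limma adjusted p = 0.0706). Within each array bZIP19 exceeded BZIP24, by 0.74, 1.23 and 0.80, a mean of 0.92 ± 0.27 (SD, n = 3). The exact two-sided sign-flip test gave p = 0.25, the smallest value that 3 arrays allow, so the design could not bring this difference past the threshold. It was 1 of 4 such differences within groups, and for none of the 4 could this test give a p under 0.25, even before any adjustment.

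None of the 10 genes listed for the zinc deficiency response, which are known targets of bZIP19 and bZIP23 such as the ZIP transporters, had a named feature. The transcript ratio of bZIP19 could therefore not be set beside those of its targets. For BZIP24, the gene with the largest absolute mean, the 3 loci nearest in their values over the 3 arrays were AT4G10030, AT2G31725 and AT4G19390, at Euclidean distances of 0.0949, 0.108 and 0.112 on the log2 scale. AT4G10030 had ratios of -0.26, -1 and -0.50. AT2G31725 had -0.23, -1 and -0.58. AT4G19390 had -0.21, -0.90 and -0.62. Like BZIP24 they were lowest on array 2, and like BZIP24 none of them passed, with limma adjusted p-values from 0.061 to 0.0663. Since they were chosen for nearness to the values of BZIP24, this likeness was set by the choice. With 3 arrays, such likeness describes these values alone.

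**Figure D2:**
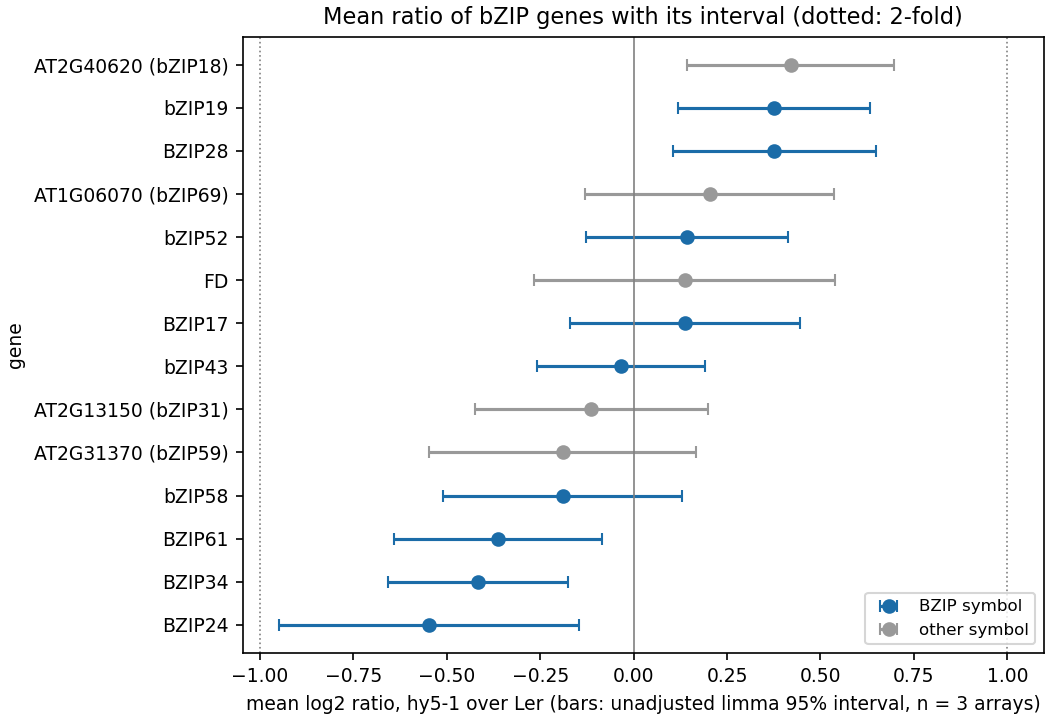
Mean log2 ratio of hy5-1 over Ler (horizontal axis) with its unadjusted limma 95% interval for the 9 genes with a BZIP symbol (blue) and 5 further bZIP genes listed under another name (grey), ordered by mean. Dotted lines mark 2-fold. Every interval lies inside 2-fold, those of BZIP24, BZIP34 and BZIP61 lie below 0, and those of AT2G40620, bZIP19 and BZIP28 lie above 0.

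Group B comprises factors anchored in the membrane of the endoplasmic reticulum, which are cleaved under stress so that their DNA-binding part reaches the nucleus. BZIP28, a main activator of chaperone genes in the unfolded protein response, had ratios of 0.19, 0.48 and 0.46 on arrays 1, 2 and 3. All lay above 0, with array 1 the lowest, at a mean of 0.38 ± 0.16 (SD, n = 3), with an adjusted p by limma of 0.0676, which did not pass. BZIP17, which acts in salt stress and overlaps with BZIP28 in function, had -0.08, 0.37 and 0.12 on the same arrays. These values lay on both sides of 0, with a mean of 0.14 ± 0.23 (SD, n = 3), a limma adjusted p of 0.484 and a 95% interval from -0.17 to 0.44. That mean was 0.02 without replicate 2 and 0.245 without replicate 1. BZIP17 stood below BZIP28 on each array, by -0.27, -0.11 and -0.34, but the exact sign-flip test again gave its smallest possible p of 0.25.

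Of 14 genes of the unfolded protein response, in which BZIP17 and BZIP28 act, 3 had a named feature. By limma 0 of these rose or fell past the threshold, which 17.2% of all loci passed. BIP1, an HSP70 chaperone of the endoplasmic reticulum, had ratios of -2.01, -0.34 and -0.94 on arrays 1, 2 and 3. All 3 lay below 0 but array 1 was far below array 2, and the mean of -1.10 ± 0.85 (SD, n = 3) had a limma adjusted p of 0.0736. BIP1 has a nearly identical copy, BIP2, and the feature was not shown to tell them apart. CRT1b, a calreticulin of the same compartment, had -0.86, -0.11 and -0.46, a mean of -0.48 ± 0.38 (SD, n = 3), with an adjusted p by limma of 0.103. ATERDJ3B, a co-chaperone of BiP, had -0.17, 0.12 and 0.05 and a mean of 0. The means of BIP1 and CRT1b were thus below 0, that of ATERDJ3B was 0, and those of both group B factors were above 0. The ratios of ATERDJ3B and BZIP17 lay on both sides of 0, and none of these 5 genes passed. By unadjusted p, limma put BIP1 at 0.0184, CRT1b at 0.032, BZIP28 at 0.0159 and BZIP17 at 0.306, where 36.3% of all loci lay under 0.05. Across the arrays, all 5 genes of this set had their lowest ratio on array 1 and their highest on array 2, an order shared by 17.3% of all loci. That order was read from these same genes and was not planned, so the count was set by the choice and tests no link between them. For BZIP28 arrays 2 and 3 were nearly alike, at 0.48 and 0.46.

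**Figure D3:**
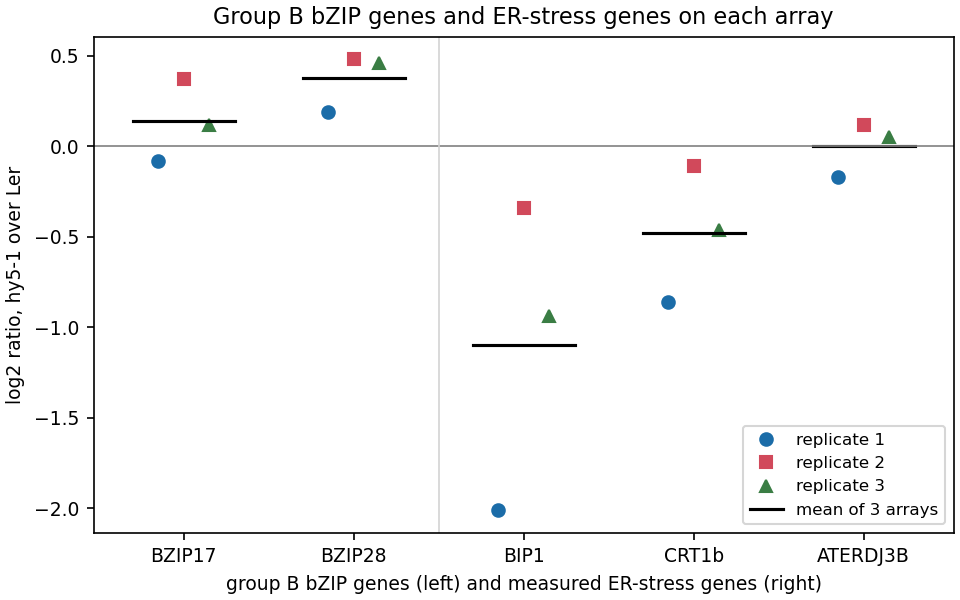
Log2 ratio of hy5-1 over Ler (vertical axis) on each array for the group B genes BZIP17 and BZIP28 (left) and the 3 measured genes of the unfolded protein response (right). Each symbol is 1 array and the black line the mean of 3 arrays. Every gene is lowest on array 1, down to -2.01 for BIP1, and highest on array 2.

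bZIP52 was the only group I gene with a BZIP symbol. Group I proteins are known mainly from cell differentiation and from mechanical and osmotic responses. bZIP52 had ratios of 0.04, 0.06 and 0.33 on arrays 1, 2 and 3, with array 3 apart from the others. Its mean was 0.14 ± 0.16 (SD, n = 3), at an adjusted p of 0.397. Without replicate 3 that mean was 0.05. Further group I genes had features named by locus and carry a bZIP number or the name PosF21 in the RefSeq gene table. AT2G40620 (bZIP18) had 0.38, 0.61 and 0.27, all above 0, at a mean of 0.42 ± 0.17 (SD, n = 3), with an adjusted p by limma of 0.0576, just short of the threshold. AT1G06070 (bZIP69) had 0.35, -0.10 and 0.36, and AT2G31370 (PosF21, bZIP59) had 0.02, -0.53 and -0.06. AT2G13150 (bZIP31) had 0.02, 0.02 and -0.38. The last 3 changed sign between arrays, and their limma adjusted p-values ran from 0.328 to 0.575. Group I thus held 5 genes with a named feature, bZIP52 included, and 0 of them passed, where 17.2% of all loci did. The flowering regulator FD, the bZIP partner of FT in group A, had -0.09, 0.55 and -0.05, with the sign of array 2 opposite to the others. Its mean was 0.14 ± 0.36 (SD, n = 3), at an adjusted p of 0.606.

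Group S included the gene with the ratios nearest to 0, bZIP43. The group holds short bZIP proteins, several of which pair with group C proteins in the response to energy shortage. Group S was not divided further here, so neither bZIP43 nor bZIP58 is placed among these several. bZIP43 had -0.04, -0.01 and -0.05 on arrays 1, 2 and 3, a mean of -0.03 ± 0.02 (SD, n = 3), with an adjusted p by limma of 0.835. Its unadjusted limma 95% interval, from -0.26 to 0.19, reached up to 1.20-fold in size. The interval reflects spread between arrays and not a dye effect of the feature. Signal over background is unknown, so ratios near 0 do not show that the transcript was detected. bZIP58 had -0.07, -0.47 and -0.03, so that array 2 alone lay clearly below 0, at a mean of -0.19 ± 0.24 (SD, n = 3), with an adjusted p by limma of 0.341. Without replicate 2 its mean was -0.05. Of 13 genes listed for energy deprivation 1 had a named feature, MCCA, a subunit of the mitochondrial carboxylase of leucine breakdown. MCCA had 0.50, 1.20 and 0.36, with a mean of 0.69 ± 0.45 (SD, n = 3), with an adjusted p by limma of 0.0628, which did not pass.

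**Figure D4:**
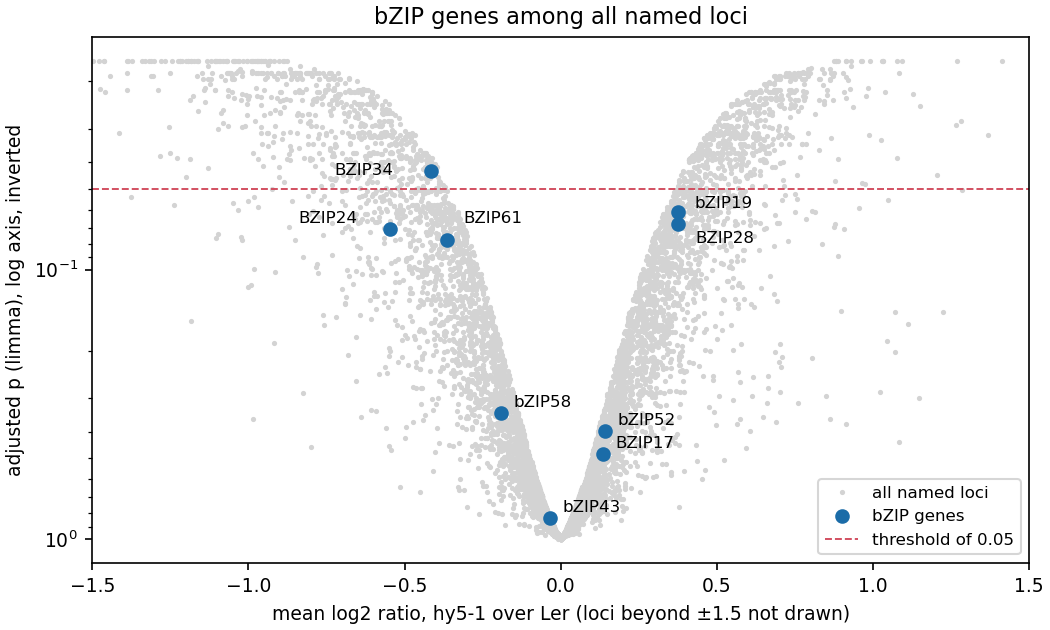
Adjusted p from limma (vertical axis, log scale, inverted) against the mean log2 ratio of hy5-1 over Ler (horizontal axis) for all named loci (grey, drawn to 1.5 on either side) and the 9 bZIP genes (blue). BZIP34 lies just past the dashed threshold of 0.05, and bZIP19, BZIP28, BZIP24 and BZIP61 lie between 0.061 and 0.0775.

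For none of the 9 genes did the estimate or its interval reach 2-fold. The unadjusted 95% interval of each of the 9 bZIP genes stayed within 2-fold, as did those of 88.5% of all loci, and the widest, that of BZIP24, reached 1.93-fold in size. None of the 9 met a 2-fold minimum in addition to the threshold, which 2.09% of all loci did. The median absolute mean was 0.36 among the bZIP genes and 0.22 among all loci, and the median SD over the arrays was 0.16 among the bZIP genes and 0.19 among all loci. Of 25 genes for light signalling beside HY5 and 15 for abscisic acid signalling, where many group A proteins act, none had a named feature, nor did any of the 5 flower markers.

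**Figure D5:**
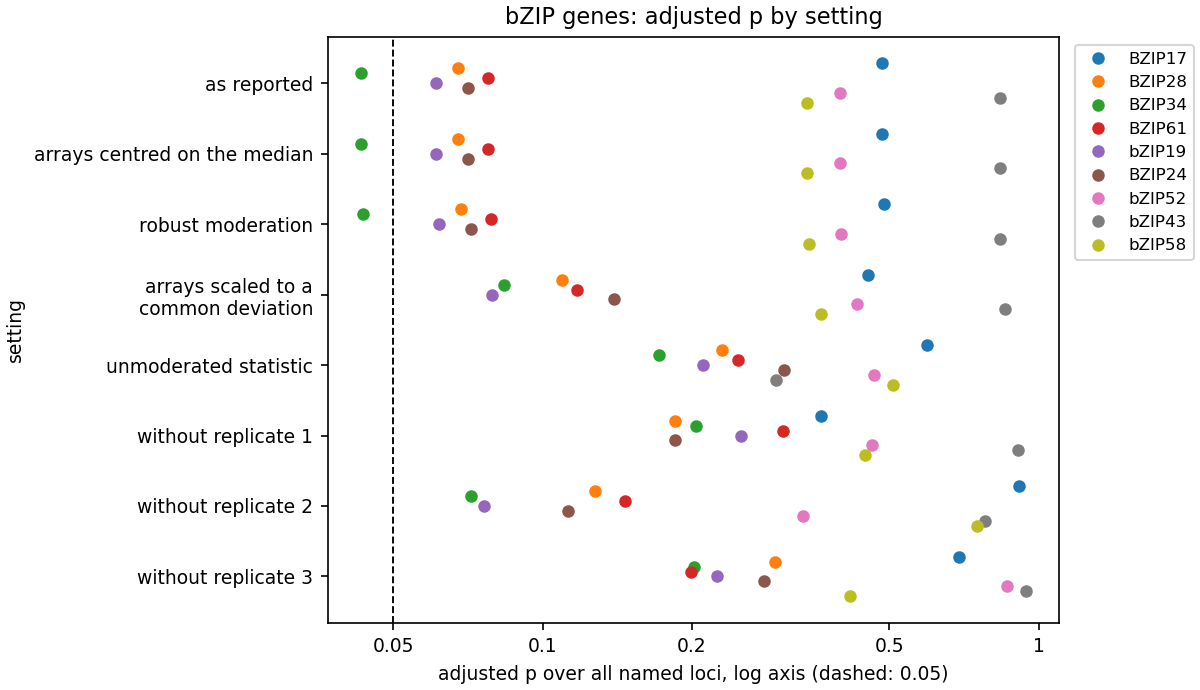
Adjusted p over all named loci (horizontal axis, log scale) of each bZIP gene under the reported fit and 7 alternatives (vertical axis). The dashed line marks 0.05. BZIP34 is the only gene left of it, in the reported fit, with median centring and with robust moderation. No bZIP gene passes with any 1 array left out, but without replicate 1 or replicate 3 limma called 0 of all named loci. The unmoderated statistic called 3 of all named loci.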

How the data were processed

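The authors deposited log2 ratios of the 2 channels for 45220 features on each of 3 arrays, with no missing value. No source used here gives the normalisation or the scanner software, and base 2 and red over green are assumptions. The arrays averaged 0 and their medians were 0 or 0.01. Intensities were not analysed here, so signal over background is unknown.

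All 7440 named features had 1 gene each in the platform annotation and matched the RefSeq gene table (assembly TAIR10.1). They were joined to the value rows by an order of the features that was found earlier from these values. It was taken to be the array maker's order, which no source used here states. For 7 genes with 10 or more features (71 features), the variance within genes over the total variance was 0.0866 in this order and 0.979 with row numbers as given. These are the values from which the order was found, so the ratio is not an independent check of it. No bZIP gene was among the 7, since each has 1 feature, and every gene name rests on the order.

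Features were averaged per locus, giving 7234 loci, and each mean was tested against 0 with limma (version 3.58.1, R 4.3.3) by an intercept fit with empirical Bayes moderation. The residual degrees of freedom were 2, to which moderation added 3.04. The fit was tested on simulated data with changes of 2-fold or more, a size that no bZIP mean reached. Recovery of smaller changes was not tested. Array number limits the precision. The p-values weigh each mean against the spread between 3 arrays labelled biological replicates, moderated by the spread over all loci. Correlations over loci between arrays were 0.504 to 0.759.

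The bZIP genes and lists were chosen with earlier results of these data known, and bZIP groups follow the published family classification. All genes with a BZIP symbol are named, as are the 3 loci nearest to the bZIP gene of largest absolute mean. Genes of the lists are named where 5 or fewer of a list had a named feature. The further group I genes named by a RefSeq synonym were added after the data had been seen. The planned search of promoters and proteins was not made, since no sequence was used here. Alternatives covered scaling, centring, moderation, row order, single features, a 2-fold minimum and leaving out each array.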

Additional observations from a re-analysis of the deposited data

How the results depend on the processing

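The count of bZIP genes past the threshold, 1 (BZIP34, lower in hy5-1), stayed 1 with arrays centred on their medians, with robust moderation and with each probe tested on its own. It became 0 with arrays scaled to equal median absolute deviations, with the unmoderated statistic, with row numbers as given and with a 2-fold minimum, and it was 0 without each array in turn. Under an unadjusted p of 0.05 limma then gave 5 bZIP genes with scaling, 3 without replicate 1, 4 without replicate 2 and 3 without replicate 3. The unmoderated statistic gave 2, and limma gave 1 with row numbers as given. Over all 7234 loci these counts were, in the same order, 2382, 1613, 2795, 1585, 1627 and 1515. The count of bZIP genes higher in hy5-1 was 0 in every setting where it was counted. The counts of all, higher and lower loci, 1242, 570 and 672, became 391, 166 and 225 with scaling, 3, 2 and 1 with the unmoderated statistic (2 loci had equal values on all arrays, which gives a p near 0) and 491, 242 and 249 with row numbers as given. With a 2-fold minimum 151 loci passed. With an array left out limma gave 0 to 1380, 0 to 655 and 0 to 725, and 0 in each count without replicate 1 (1613 loci under an unadjusted p of 0.05) and without replicate 3 (1585 loci). A 2-fold minimum can only remove calls, by its construction, and for the other changes the cause was not tested. The median ratio of the bZIP genes, -0.03, ran from -0.025 to -0.05. Only row numbers as given, which read other features, turned means: BZIP17 to -0.19, BZIP28 to -0.10, BZIP24 to 0.16 and bZIP52 to -0.0033. What dim features limit cannot be said, since intensities were not analysed here. No paired analysis was possible because the arrays make up 1 group, with both genotypes paired inside each ratio.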

Other observations

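Over the 9 bZIP genes the ratios of arrays 2 and 3 correlated at r = 0.906 (Spearman's rho 0.883), those of arrays 1 and 3 at 0.741 (rho 0.817) and those of arrays 1 and 2 at 0.696 (rho 0.667). Over all 7234 loci the same pairs of arrays had r = 0.504, 0.759 and 0.512. These are correlations across genes, which share their arrays and are not independent replicates, and they are given as a description. The spread of the 9 ratios, as an SD across genes, was 0.482 on array 2, against 0.303 on array 1 and 0.319 on array 3. Over all loci that SD was 0.488, 0.499 and 0.419 on arrays 1, 2 and 3.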
